A study of Mus musculus with 18 samples.

Results

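The 40 genes described here drive the cell division cycle or hold it back. They were chosen by name for their known role, with earlier results of these data known. All 40 were among the 54532 genes of the deposited table. By role they are 8 G1 cyclins and kinases, 7 genes of DNA replication and nucleotide supply, 2 transcription factors, 20 genes of mitosis and 3 inhibitors of cyclin-dependent kinases (CDKs). The mitotic genes comprise 10 mitotic cyclins and entry factors and 10 spindle, checkpoint and chromosome genes. They were followed in poly(A) RNA from cells of mouse liver, prepared after bile duct ligation (BDL), an operation that stops bile from draining, or after sham surgery (Sham). There were 3 preparations. MPH are primary hepatocytes, BECs are biliary epithelial cells from the duct lining, and the Kupffer-like cells carry the name of the resident liver macrophage. Each combination of cell type and operation had 3 libraries, 18 in all. The labels do not state strain, age, genotype or how long after surgery cells were taken. Nothing states that each library came from its own mouse, so p-values measure only the spread between these libraries, which may be partly technical.

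A cell enters the cycle when D-type cyclins activate CDK4 and CDK6, which phosphorylate the retinoblastoma protein and release E2F factors. E2F targets such as the MCM helicase subunits, PCNA and ribonucleotide reductase then build the S phase machinery. Later, B-MYB, FOXM1 and the DREAM complex govern the mitotic genes, many of which carry CCAAT boxes and a cell cycle homology region (CHR) in their promoters. The inhibitors p21 (Cdkn1a), p27 (Cdkn1b) and p18 (Cdkn2c) oppose these kinases. In the healthy adult liver most hepatocytes and bile duct cells rest outside the cycle, and blocked bile flow is a classical trigger of bile duct cell division.

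The promoter letters are shown first, because CHR letters were in most windows of mitotic genes and E2F letters in most windows of replication genes. CCAAT letters were in most windows of both. RefSeq windows (GRCm38.p6, 250 bases before to 50 after the annotated start) were at hand for 32 of the 40 genes. They were searched on both strands for CHR letters (TTTGAA, or its variant TTTAAA, which reads the same on both strands) and for the CCAAT box. E2F letters were TTCCCGC, then the variants with TTGGCGC, those with TTCGCGC, and those with TTGCCGC. CHR letters were in 15 of 16 mitotic windows against 27.8% of the windows of 27025 genes. CCAAT was in 15 of 16 mitotic windows against 37.9%. E2F letters were in 4 of 7 windows of replication genes against 9.69%. CCAAT was in 6 of these 7 windows and CHR letters in 3, so CCAAT did not set the mitotic genes apart. Of the 5 windows of G1 cyclins and kinases, 1 held CHR letters, 1 CCAAT and 1 E2F letters. A match describes letters only, and no binding was measured here.

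The 250 bases upstream of the start are given 5′ to 3′ for 7 genes. Pcna, Cdc20, Mcm6, Cdk4 and Ccnb2 had the smallest p, among the 32 members with a window, in the comparison of MPH with BECs after ligation. That comparison had the most changed members. Ccnb1 and Cenpa were added after their values were seen, because their response differed between cell types. Capitals mark CHR, CCAAT and E2F letters on either strand (a CCAAT on the other strand reads ATTGG). In Ccnb1 the E2F letters overlap the first CCAAT, and in Mcm6 E2F letters of both strands overlap each other at both sites. In Ccnb1, CCAAT starts at positions -99 and -67 and the CHR letters at -42. In Cenpa, CCAAT lies at -109 and -86 and the CHR letters at -17. Cdk4 holds none of the 3 kinds of letters. Positions count from the RefSeq start, while gene coordinates below are GENCODE M21 spans. For Cenpa, Pcna, Ccnb1 and Cdc20 these spans take in some or all marked letters. The marked letters of Cenpa and Pcna lie within the annotated span. So do those of Ccnb1 at -67 and -42 and the CCAAT of Cdc20 at -8.
Pcna (chr2:132253181-132253430, minus strand): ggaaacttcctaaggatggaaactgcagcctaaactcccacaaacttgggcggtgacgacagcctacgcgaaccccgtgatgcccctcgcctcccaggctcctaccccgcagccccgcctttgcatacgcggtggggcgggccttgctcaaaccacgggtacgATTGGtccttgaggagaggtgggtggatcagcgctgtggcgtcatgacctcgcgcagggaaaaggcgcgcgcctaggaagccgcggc
Cdc20 (chr4:118437344-118437593, minus strand): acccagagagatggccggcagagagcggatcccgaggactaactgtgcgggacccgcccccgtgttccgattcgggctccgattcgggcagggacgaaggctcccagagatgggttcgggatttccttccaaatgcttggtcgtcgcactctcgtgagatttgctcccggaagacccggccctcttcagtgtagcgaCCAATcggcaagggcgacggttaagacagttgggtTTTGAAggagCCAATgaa
Mcm6 (chr1:128359706-128359955, minus strand): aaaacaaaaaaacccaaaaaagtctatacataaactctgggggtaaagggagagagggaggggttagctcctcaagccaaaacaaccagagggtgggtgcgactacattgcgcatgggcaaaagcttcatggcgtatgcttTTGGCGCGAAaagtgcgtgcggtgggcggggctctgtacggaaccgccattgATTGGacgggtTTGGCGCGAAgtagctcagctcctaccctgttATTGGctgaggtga
Cdk4 (chr10:127063285-127063534, plus strand): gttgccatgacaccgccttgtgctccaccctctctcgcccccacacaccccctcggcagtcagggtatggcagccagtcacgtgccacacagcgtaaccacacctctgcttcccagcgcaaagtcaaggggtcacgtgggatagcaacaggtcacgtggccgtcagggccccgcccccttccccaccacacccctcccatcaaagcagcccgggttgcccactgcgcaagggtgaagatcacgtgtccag
Ccnb2 (chr9:70421555-70421804, minus strand): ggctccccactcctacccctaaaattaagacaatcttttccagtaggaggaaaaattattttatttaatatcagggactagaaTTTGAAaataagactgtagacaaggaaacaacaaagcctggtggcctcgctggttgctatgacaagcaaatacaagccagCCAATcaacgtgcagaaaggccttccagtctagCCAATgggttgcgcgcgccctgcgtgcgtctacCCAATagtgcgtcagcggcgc
Ccnb1 (chr13:100786487-100786736, minus strand): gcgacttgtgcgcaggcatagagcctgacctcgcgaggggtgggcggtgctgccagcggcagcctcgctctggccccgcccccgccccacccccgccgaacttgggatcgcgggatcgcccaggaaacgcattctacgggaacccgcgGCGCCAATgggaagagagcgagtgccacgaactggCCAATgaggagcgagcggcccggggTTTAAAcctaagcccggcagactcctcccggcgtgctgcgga
Cenpa (chr5:30666636-30666885, plus strand): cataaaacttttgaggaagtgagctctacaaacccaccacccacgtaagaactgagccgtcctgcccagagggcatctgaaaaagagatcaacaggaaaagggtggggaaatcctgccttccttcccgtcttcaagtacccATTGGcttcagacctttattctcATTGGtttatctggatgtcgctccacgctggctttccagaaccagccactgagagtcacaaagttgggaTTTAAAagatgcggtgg

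**Figure D1:**
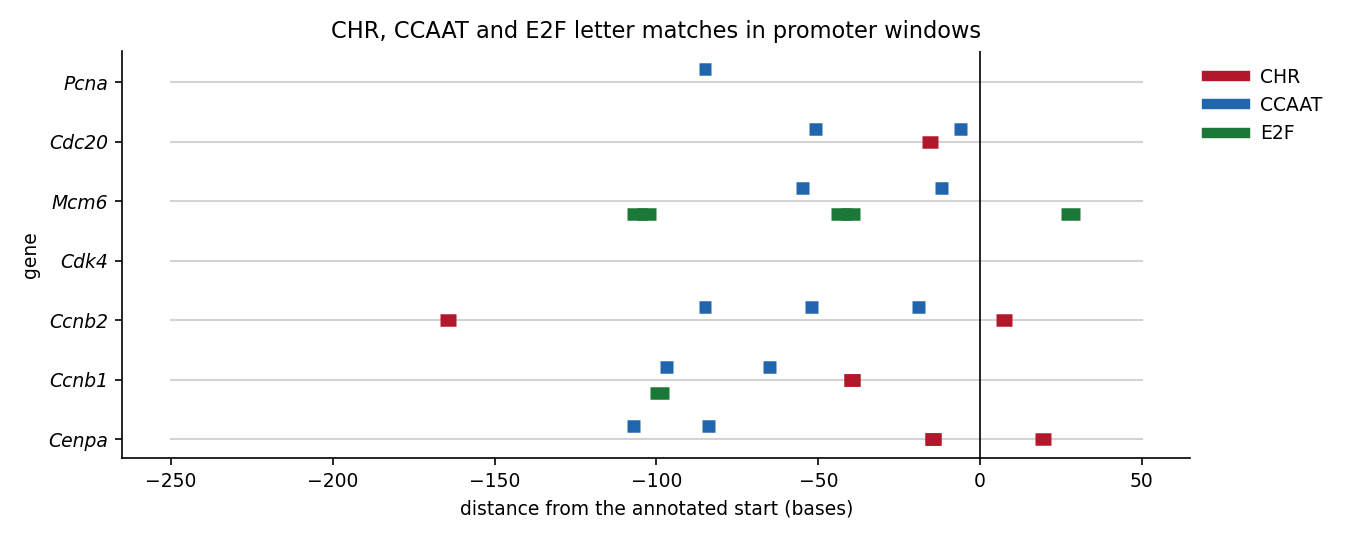
Letter matches by distance from the annotated start (bases, x axis) in the promoter windows of 7 genes (y axis), from 250 bases before to 50 after it. The CCAAT matches of Ccnb1 start at -99 and -67 and its CHR match at -42, and Cdk4 has no match.

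Levels are FPKM, fragments per kilobase of exon, scaled for the size of each library, as deposited by the authors. The FPKM values gave back 15455406 to 20583321 reads in genes per library. Markers of hepatocytes summed to 42114 to 116990 FPKM in MPH and at most 4333 in the other preparations, and biliary markers to 2755 to 4108 in BECs and at most 146 in the others. Kupffer cell markers summed to 2765 to 16871 FPKM in Kupffer-like cells and to 1901 to 8779 in MPH, so these ranges overlap. Both sexes were present in every group, as read from the Y-linked gene Ddx3y and from Xist. MPH Sham 1 was the highest of its 3 libraries for 18 of 20 mitotic genes, BECs Sham 3 for 20 of 20, BECs BDL 2 for 19 of 20 and Kupffer BDL 3 for 20 of 20. In bulk RNA, fewer cells of a type and less RNA per cell cannot be told apart.

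**Figure D2:**
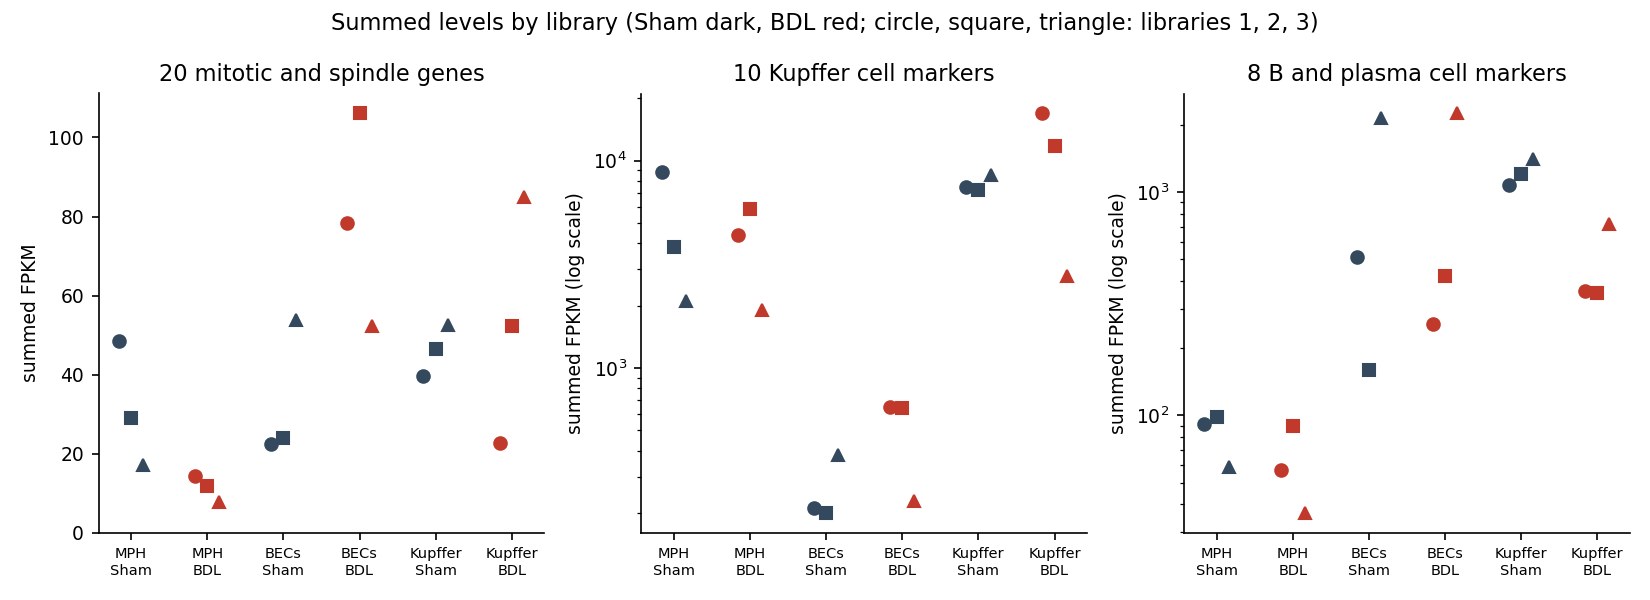
Summed FPKM per library (y axis) of the 20 mitotic genes (left), 10 Kupffer cell markers (middle, log scale) and 8 B and plasma cell markers (right, log scale), by cell type and operation (x axis). The mitotic sum is 7.68 to 14.45 in MPH BDL and 52.3 to 106 in BECs BDL.

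By group mean the summed level of the 20 mitotic genes was lowest in hepatocytes after ligation and highest in BECs after ligation. The sum was 48.6, 29.1 and 17.0 FPKM in the 3 MPH Sham libraries and 14.45, 11.9 and 7.68 in MPH BDL, with no overlap. It was 22.4, 23.9 and 53.9 in BECs Sham and 78.3, 106 and 52.3 in BECs BDL, where only Sham 3 and BDL 3 overlapped. It was 39.6, 46.6 and 52.5 in Kupffer Sham and 22.6, 52.3 and 84.9 in Kupffer BDL, which lay on both sides of the Sham range. By group mean, 24 of the 40 genes were highest in BECs BDL, 7 in Kupffer Sham, 4 in Kupffer BDL, 3 in BECs Sham and 2 in MPH Sham. The lowest mean was in MPH BDL for 34 of 40. Ranked by mean, the mitotic sum was lowest in MPH BDL (11.4 ± 3.42 FPKM, SD, n = 3), followed by MPH Sham (31.6 ± 15.9), BECs Sham (33.4 ± 17.7), Kupffer Sham (46.2 ± 6.46), Kupffer BDL (53.3 ± 31.1) and BECs BDL (78.9 ± 27.0). Except for MPH BDL and MPH Sham, the ranges of neighbours in that order overlapped.

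In BECs a pair of mitotic genes rose after ligation and a D-type cyclin fell. The number of calls was near the share called among all genes, and it depended on single libraries and settings, as given below. Of the 40 genes, 36 passed the filter on low values and 3 were called at an adjusted p under 0.05 with limma, against 7.66% of all 13573 genes tested. Those that rose were Cenpa (ENSMUSG00000029177.9, chr5:30666777-30674830, plus strand, GRCm38) and Ccnb1 (ENSMUSG00000041431.16, chr13:100778650-100786570, minus strand). The one that fell was Ccnd2 (ENSMUSG00000000184.12, chr6:127125162-127152193, minus strand). Of the 17 mitotic genes tested, 17 had a positive log2 fold change, with a median of 0.92 against -0.03 for all genes. Of all 36 members tested, 32 were positive (median 0.57), and 18 had an unadjusted p under 0.05. The share of all genes with an unadjusted p under 0.05 was not counted. Such counts, here and below, therefore have no background and do not set the members apart. Over all 40 members, tested or not, 36 had a higher mean after ligation and 4 a lower one.

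Ccnb1 encodes cyclin B1, which binds CDK1 to trigger mitosis. It stood at 0.490, 0.397 and 1.24 FPKM in BECs Sham and 2.74, 3.99 and 2.05 in BECs BDL. The groups did not overlap, and the highest Sham value was that of library 3. No other Sham library reached 1 FPKM, so Ccnb1 passed the filter through its BDL libraries, where it was higher. The mean was 4.13-fold higher after ligation (log2 fold change 1.20 on the log2(FPKM + 1) scale, SE 0.25, adjusted p = 0.0384 with limma). Its reads were few, 37 to 100 in Sham and 178 to 307 in BDL libraries.

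Cenpa encodes the histone H3 variant that marks centromeres. It stood at 2.07, 2.37 and 3.01 FPKM in BECs Sham and 7.23, 4.59 and 5.43 in BECs BDL, again without overlap. The mean was 2.32-fold higher (log2 fold change 0.95, SE 0.18, adjusted p = 0.0317 with limma).

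Other mitotic genes of BECs had positive log2 fold changes that did not pass the threshold. Mki67, the gene of the proliferation antigen Ki-67, stood at 2.54, 3.19 and 4.90 FPKM in Sham and 11.4, 13.1 and 5.29 in BDL. BDL libraries 1 and 2 stood well above all Sham libraries, while BDL 3 was close to Sham 3. The log2 fold change was 1.22 (SE 0.34, adjusted p = 0.0794 with limma). Top2a, topoisomerase II alpha, stood at 2.07, 2.07 and 4.29 in Sham and 6.62, 10.3 and 4.56 in BDL, with the same pattern (1.09, SE 0.32, adjusted p = 0.0879 with limma). Kif11, a motor of the spindle, had a log2 fold change of 0.95 (SE 0.24, adjusted p = 0.0602 with limma). Cdc20, an activator of the anaphase-promoting complex, and Ccnb2, cyclin B2, had 1.14 and 1.09, and their groups overlapped through Sham 3. Over all members tested, 11 did not overlap with BDL higher (13.0% of all genes) and 3 did not overlap with BDL lower (18.8% of all genes).

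The mitotic kinases and checkpoint genes of BECs shared the high Sham 3 library. Cdk1, the kinase that drives mitosis, stood at 0.929, 0.999 and 3.29 FPKM in Sham and 3.98, 5.58 and 2.43 in BDL (log2 fold change 0.92, SE 0.38). Plk1, a kinase of centrosomes and spindle, stood at 0.893, 0.904 and 2.69 in Sham and 2.73, 4.54 and 2.12 in BDL (0.76, SE 0.33). In both, Sham 3 lay above BDL 3 and below BDL 1 and 2. Bub1b, a spindle checkpoint gene, stood at 1.60, 1.45 and 1.84 in Sham and 3.40, 4.42 and 2.12 in BDL, without overlap (0.68, SE 0.21). Aurkb, Birc5 and Cdca8, which encode partners in the chromosomal passenger complex, had 0.69, 0.59 and 0.59, each with overlap. Too low for the test in BECs were Ccne2, Cdc25c, Cenpe and Cenpf, all with a higher mean in BDL.

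**Figure D3:**
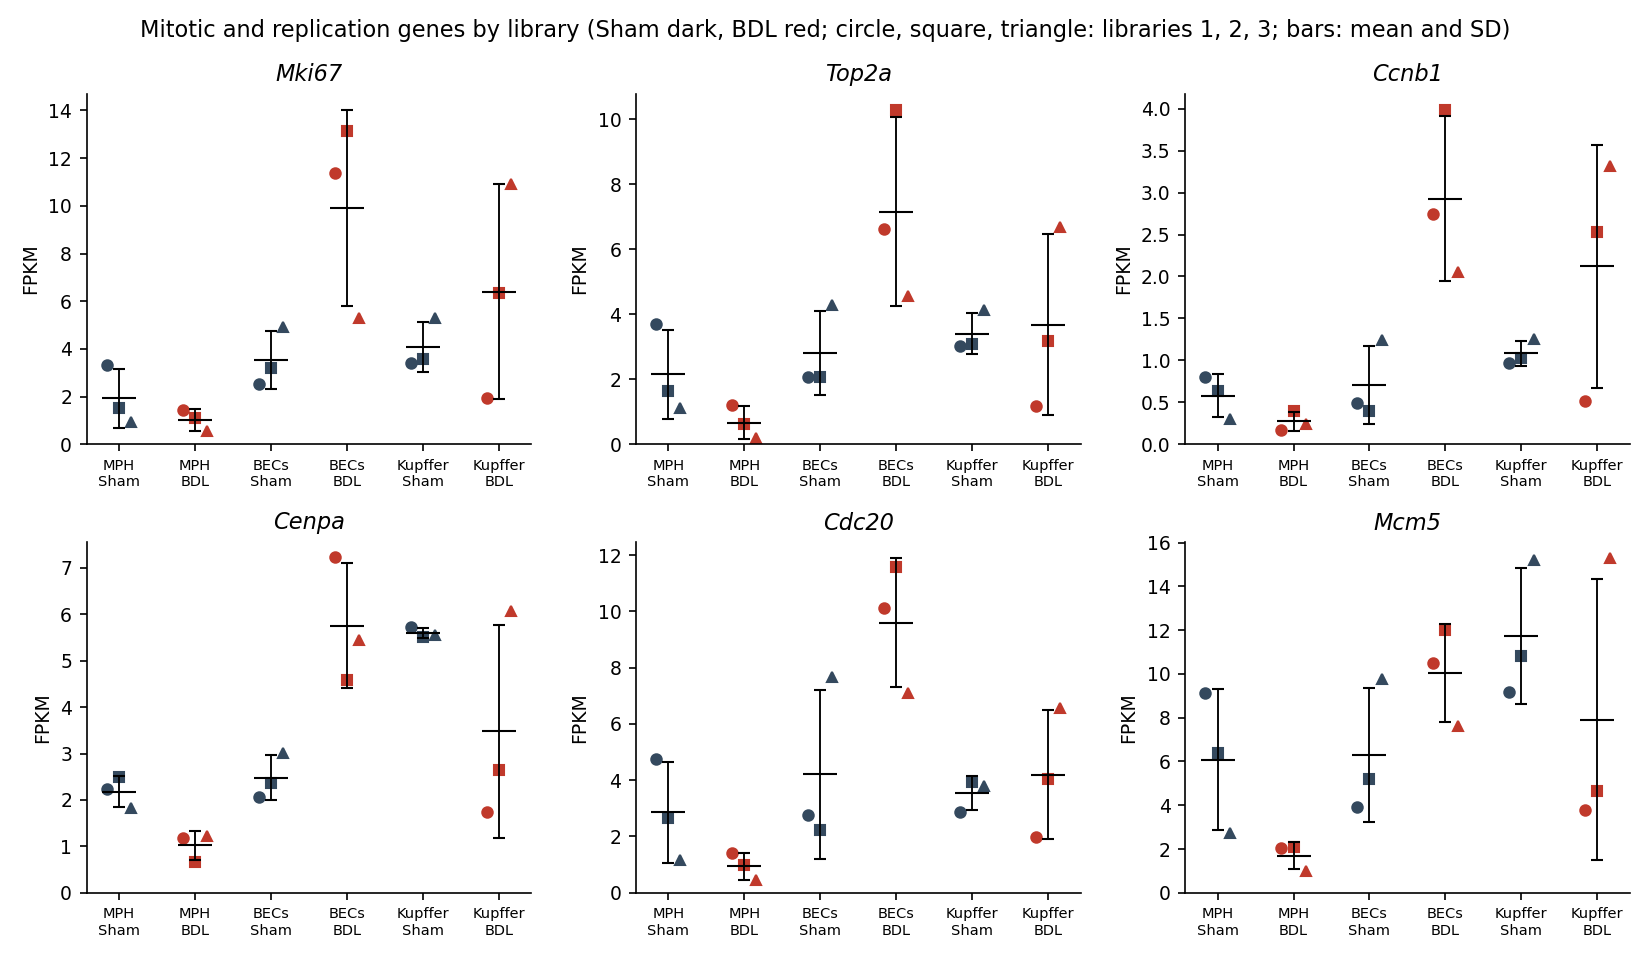
FPKM per library (y axis) of 5 mitotic genes and the replication gene Mcm5 by cell type and operation (x axis), with mean and SD of 3 libraries. In BECs BDL all 3 Ccnb1 values lie above Sham, while in MPH the Ccnb1 values overlap at or below 0.802.

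No replication gene was called in BECs. Of 7, 0 were called with limma (1 had an unadjusted p under 0.05, and none was called with voom), and the median log2 fold change was 0.38. Pcna, the sliding clamp of DNA polymerases, stood at 74.3, 75.1 and 83.2 FPKM in Sham and 82.9, 76.5 and 62.0 in BDL, so the groups overlapped (-0.08, 95% interval -0.46 to 0.30). Mcm2, a helicase subunit, stood at 3.45, 3.47 and 5.62 in Sham and 5.09, 6.20 and 5.03 in BDL, also overlapping (0.34, -0.11 to 0.78). Rrm2, the small subunit of ribonucleotide reductase, had 0.59 (SE 0.21). Of the transcription factors, Foxm1 had 0.68 (SE 0.24) and E2f1 0.42 (SE 0.32), neither called.

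All 3 D-type cyclins of BECs had negative log2 fold changes. Ccnd2 stood at 14.1, 13.0 and 11.8 FPKM in Sham and 7.01, 6.59 and 6.87 in BDL. The 3 BDL libraries lay within a narrow range far below Sham, and the mean was 0.526 of that in Sham (log2 fold change -0.83, SE 0.12, adjusted p = 0.0152 with limma). Ccnd1 stood at 49.0, 40.5 and 40.6 in Sham and 29.1, 33.6 and 19.5 in BDL. Its groups did not overlap either (-0.67, SE 0.22, adjusted p = 0.109 with limma), nor did those of Ccnd3 (-0.46, SE 0.16). Of the exon bases of Ccnd1, 23.4% overlap Oraov1 on the other strand, which stood at 1.77 FPKM in BECs Sham. Their kinase partners had positive values. Cdk6 had 0.55 (SE 0.15, adjusted p = 0.0723 with limma), without overlap. Cdk4 stood at 25, 22.1 and 39.1 in Sham and 39.5, 41.8 and 32.7 in BDL, overlapping through Sham 3 (0.42, 95% interval -0.12 to 0.97). On the inhibitor side, Cdkn1a stood at 66.3, 76.7 and 72.0 in Sham and 115, 76.5 and 97.9 in BDL, where BDL 2 lay inside the Sham range (0.41, -0.03 to 0.84).

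The calls in BECs depended on single libraries and on settings. Without Sham 1 or BDL 1, 0 of 36 and 0 of 34 members were called with limma, although 9 and 11 had an unadjusted p under 0.05 (0.652% and 1.93% of all genes were called). Without Sham 2, 1 was called (Ccnd2, against 2.70% of all genes), and without BDL 2, 2 were (Ccnd2 and Cenpa, against 3.08%). Without Sham 3, 4 of 35 were called (against 4.80% of all genes), Cdc20 being added. Without BDL 3, 8 of 35 were called (against 7.84%), Mki67, Top2a, Bub1b, Kif11 and Cdk6 being added. Without the filter on low values 0 of 40 were called with limma (19 with an unadjusted p under 0.05, against 0.243% of all genes called), while voom on recovered reads called 5 (against 8.02%). In the model of all 18 libraries, which called 6.08% of all genes, Ccnb1 and Cenpa were called and Ccnd2 was not (adjusted p = 0.249 with limma). With sex as a covariate (4.24% of all genes called), Ccnd2 stayed below 0.05 while Ccnb1 and Cenpa had adjusted p values of 0.0714 and 0.0615 with limma. Within sexes, the mitotic sum was 22.4 and 23.9 FPKM in male Sham and 78.3 in male BDL libraries. It was 53.9 in the female Sham and 106 and 52.3 in the female BDL libraries.

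Markers of biliary cells and of other cells also moved in BECs. Biliary markers summed to 3733.9, 3752.5 and 4108.4 FPKM in Sham and 3071, 3131 and 2755 in BDL, without overlap and with none at 0. Of these 10, 4 had a positive log2 fold change, 1 rose and 1 fell. Hepatocyte markers summed to 1477 to 3576 FPKM in Sham and 152 to 641 in BDL, without overlap and with none at 0. All 10 had a negative log2 fold change (median -2.17), and 1 fell. B and plasma cell markers summed to 514, 159 and 2141 FPKM in Sham and 257, 421 and 2249 in BDL, so library 3 of each group was high, and none of the 8 was at 0. Neutrophil markers summed to 53.4 to 146 in Sham and 323 to 514 in BDL, and 5 of 9 tested rose. Only Ly6g was at 0 among them, in Sham 2. Of the monocyte markers 3 of 6 rose (9.57 to 21.1 FPKM in Sham, 56.1 to 212 in BDL, none at 0). Of the T and NK cell markers 1 of 6 rose (14.6 to 18.8 in Sham, 21.2 to 44.3 in BDL, Ncr1 at 0 in BDL 1). Of the endothelial markers 7 of 9 fell (166 to 230 in Sham, 66.4 to 109 in BDL, none at 0). Kupffer cell markers summed to 213, 201 and 381 in Sham and 650, 641 and 228 in BDL, overlapping, with 5 of 9 tested positive. As in the mitotic sum, Sham 3 was the highest Sham library and BDL 3 the lowest BDL library. Stellate and fibroblast markers summed to 625 to 1061 in Sham and 915 to 1662 in BDL, overlapping, with 4 of 10 positive. Neither list had a call or a marker at 0. The part of all these cells in the cell cycle values was not tested.

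In hepatocytes most log2 fold changes were negative, and no member was called. Of the 40 genes, 26 passed the filter and 0 were called with limma, against 1.57% of 12323 genes. Of these 26, 14 had an unadjusted p under 0.05, and voom on recovered reads also called 0. The log2 fold change was negative for 23 of 26, with a median of -0.68 against -0.06 for all genes. All 20 mitotic genes had a lower mean after ligation, and 9 of them passed the filter (median -0.88). Over all 40 members, tested or not, the mean was lower for 37 and higher for 3. Of the members tested, 10 did not overlap with BDL lower (18.4% of all genes), and 2 with BDL higher (11.8% of all genes). In the model of all 18 libraries, which borrows the spread of the other cell types, 5 members were called (against 17.5% of all genes). Ccnd3, Aurka and Tyms were lower in it and Cdkn1a and Cdkn1b higher.

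The smallest p in MPH was that of Aurka, the kinase that matures centrosomes. It stood at 2.82, 3.38 and 2.83 FPKM in Sham and 1.45, 0.892 and 0.847 in BDL. Every Sham library was above every BDL library (-0.97, SE 0.19, adjusted p = 0.0618 with limma). Mki67 stood at 3.33, 1.53 and 0.932 in Sham and 1.46, 1.11 and 0.537 in BDL, and Top2a at 3.70, 1.64 and 1.12 against 1.19, 0.617 and 0.186. Both overlapped, and in both Sham 1 was the highest (-0.47, SE 0.34, and -0.88, SE 0.36). Ccnb1 stood at 0.802, 0.638 and 0.302 in Sham and 0.170, 0.402 and 0.243 in BDL, too low to be tested (9 to 45 reads).

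Several mitotic genes of MPH separated the groups at low levels. Ccnb2 stood at 5.40, 2.02 and 1.66 FPKM in Sham and 0.416, 1.11 and 0.304 in BDL (-1.24, SE 0.38, adjusted p = 0.127 with limma). Cdk1 stood at 3.11, 2.38 and 1.48 in Sham and 0.872, 1.32 and 0.718 in BDL (-0.73, SE 0.25), and Plk1 at 4.21, 2.12 and 1.11 against 0.833, 1.03 and 0.466 (-0.88, SE 0.34). None of these overlapped, although Sham 3 came close to the highest BDL library. Cenpa stood at 2.23, 2.49 and 1.82 in Sham and 1.18, 0.661 and 1.22 in BDL, also without overlap (-0.66, SE 0.20). Bub1b and Cdc20 overlapped (-0.42, SE 0.35, and -0.91, SE 0.38). Too low for the test in MPH were Foxm1, Ccne1, Ccne2 and 11 mitotic genes, and all of them had a lower mean in BDL.

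Of the replication genes of MPH, 7 of 7 had a negative log2 fold change, with a median of -0.62, and 0 were called with limma (3 with an unadjusted p under 0.05, 0 by voom). Mcm5 had the largest difference (9.13, 6.39 and 2.75 FPKM against 2.03, 2.08 and 0.980), without overlap (-1.31, SE 0.39, adjusted p = 0.124 with limma). Mcm2 stood at 3.35, 3.47 and 1.48 in Sham and 1.76, 1.33 and 1.65 in BDL, overlapping (-0.50, 95% interval -1.13 to 0.13). Pcna differed least, at 34.5, 32.9 and 24.3 against 24.9, 28.8 and 27.8 (-0.15, -0.65 to 0.35), and its value was 0.02 after scaling to a common sum.

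D-type cyclins summed to 33.25, 53.6 and 20.1 FPKM in MPH Sham and 23.5, 16.6 and 9.25 in MPH BDL. Ccnd1 stood at 19.2, 38.1 and 12.9 in Sham and 17.7, 10.5 and 6.04 in BDL, and Ccnd2 at 4.00, 7.19 and 1.37 against 2.16, 1.71 and 0.753. Both overlapped through Sham 3 (-0.95, SE 0.48, and -0.90, SE 0.47). Ccnd3 did not overlap (10.0, 8.38 and 5.83 against 3.67, 4.35 and 2.46, log2 fold change -1.01, SE 0.26, adjusted p = 0.0904 with limma). Cdk4 stood at 26.4, 24.5 and 16.9 in Sham and 21.5, 15.0 and 14.9 in BDL, overlapping (-0.38, 95% interval -0.97 to 0.22). In MPH, Tspan31, a gene on the other strand that covers 19.7% of the exon bases of Cdk4, stood at 133.8 ± 45.2 FPKM in Sham. Since the strandedness of the counting is not given, reads of the overlap cannot be told apart.

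Cdkn1a and Cdkn1b had higher means after ligation in MPH. Cdkn1a stood at 34.2, 26.4 and 31.0 FPKM in MPH Sham and 37.0, 55.9 and 82.1 in MPH BDL. Every BDL library was above every Sham library (0.85, SE 0.31, adjusted p = 0.180 with limma). Cdkn1b stood at 9.98, 9.74 and 8.97 against 13.7, 15.3 and 13.0, also without overlap (0.51, SE 0.17, adjusted p = 0.146 with limma). Cdkn2c had -0.53 (SE 0.22).

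Kupffer cell markers in MPH summed to 8779, 3849 and 2106 FPKM in Sham and 4363, 5835 and 1901 in BDL, with none of the 10 at 0. Within Sham they had the same order as the mitotic sum (48.6, 29.1 and 17.0). MPH BDL 2 had more of them than Sham 2 and Sham 3 and a lower mitotic sum, 11.9. None of the 10 was called, and 2 had a positive log2 fold change. Of the monocyte markers 2 of 4 rose (9.92 to 17.6 in Sham, 71.9 to 162 in BDL, S100a4 at 0 in 3 libraries). Stellate and fibroblast markers summed to 65.5 to 144 in Sham and 166 to 338 in BDL, with none at 0, and 10 of 10 had a positive log2 fold change, none called. Biliary markers summed to 26.4 to 52.98 and 71.7 to 75.8, with 1 of 10 at 0 in each Sham library, and 1 of 6 tested rose. T and NK cell markers summed to 2.34 to 6.77 and 0.782 to 1.52, with up to 2 of 8 at 0 in a BDL library, and the 1 tested was not called. None of these 3 sums overlapped between the groups. Neutrophil markers summed to 30.0 to 132 and 117 to 289, overlapping, with 8 of 9 tested positive and none called. Endothelial markers summed to 885, 880 and 194 in Sham and 361, 601 and 177 in BDL, with none at 0 and 2 of 9 positive. B and plasma cell markers summed to 58.6 to 98.4 and 36.6 to 90.0, with 2 of 5 tested positive. Erythroid markers summed to 125 to 328 and 5.91 to 226, with 1 of 5 tested positive and up to 4 of 8 at 0. The last 3 lists overlapped between the groups and had no call. The part of other cells in the hepatocyte values was not tested. Within sexes, the mitotic sum was 48.6 and 17.0 in male Sham against 14.45 and 11.9 in male BDL libraries, and 29.1 against 7.68 in the female ones. Leaving out any 1 of the 6 MPH libraries gave 0 calls in every case.

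**Figure D4:**
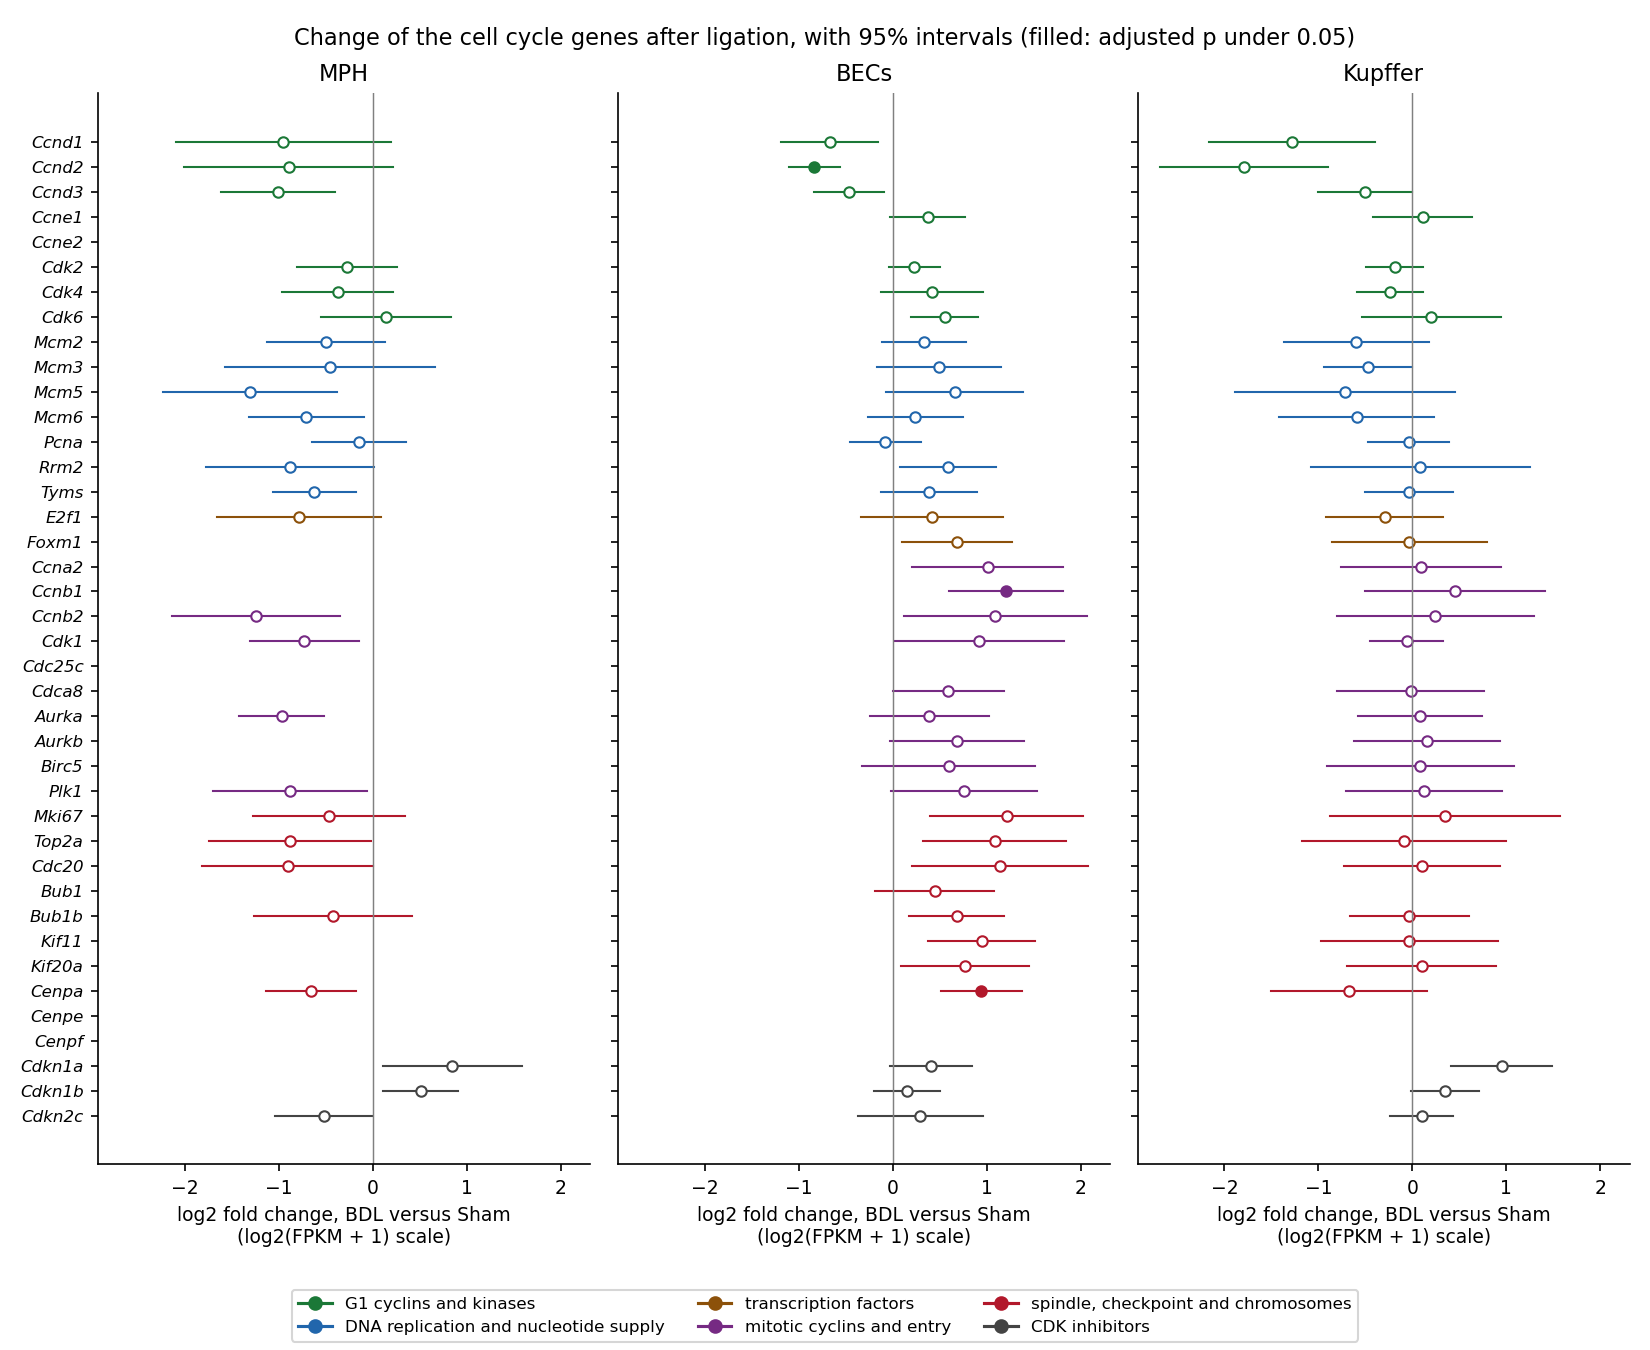
Log2 fold change of BDL versus Sham (x axis, log2(FPKM + 1) scale) with 95% interval for the members tested in each cell type (y axis), coloured by role. In BECs 17 of 17 mitotic genes lie above 0, in MPH 9 of 9 lie below, and in Kupffer-like cells they spread around 0.

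In Kupffer-like cells no member was called, the mitotic genes lay on both sides of 0, and the D-type cyclins had lower means after ligation. Of the 40 genes, 35 passed the filter and 0 were called with limma, against 3.88% of 12748 genes. There were 5 with an unadjusted p under 0.05, and voom also called 0. Over all 40 members, the mean was higher after ligation for 23 and lower for 17. The median log2 fold change was -0.03 for these members and 0.09 for the 16 mitotic genes tested. Of the members tested, 3 did not overlap with BDL lower (15.6% of all genes) and 2 with BDL higher (16.7% of all genes). Scaling to a common sum moved the median of all genes to -0.24, and then 5 of 36 members were positive in place of 16 of 35.

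Ccnd2 stood at 11.8, 12.8 and 13.6 FPKM in Kupffer Sham and 2.08, 1.77 and 6.21 in Kupffer BDL. All BDL libraries were below Sham, BDL 3 least so (-1.79, SE 0.37, adjusted p = 0.0540 with limma). Ccnd1 followed the same pattern, at 27.7, 36.5 and 38.9 against 9.28, 10.5 and 24.2 (-1.28, SE 0.36, adjusted p = 0.104 with limma). Ccnd3 overlapped (-0.51, SE 0.21). Of the summed D-type cyclin FPKM, Ccnd2 made up 20.1% to 23.1% in Sham and 8.90% to 14.5% in BDL, and Ccnd3 21.5% to 22.8% in Sham and 29.1% to 40.9% in BDL. Cdk4 stood at 28.3, 31.4 and 29.1 in Sham and 28.7, 22.9 and 23.6 in BDL, overlapping (-0.24, 95% interval -0.59 to 0.11).

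Cdkn1a stood at 32.8, 24.9 and 27.4 FPKM in Kupffer Sham and 64.5, 63.5 and 41.8 in Kupffer BDL. The groups did not overlap, and BDL 3 was again closest to Sham (0.95, SE 0.22, adjusted p = 0.0684 with limma). Cdkn1b did not overlap either (0.35, SE 0.15). Of the replication genes, Mcm2 stood at 5.04, 5.79 and 6.74 in Sham and 2.51, 2.52 and 6.41 in BDL. BDL 1 and 2 were low and BDL 3 lay inside the Sham range (-0.60, 95% interval -1.37 to 0.17). Pcna overlapped, at 70.5, 55.8 and 71.5 against 66.7, 68.3 and 56.6 (-0.04, -0.47 to 0.39).

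The mitotic genes spread widely in Kupffer BDL. Mki67 stood at 3.39, 3.56 and 5.29 FPKM in Sham and 1.93, 6.35 and 10.9 in BDL, Top2a at 3.01, 3.09 and 4.12 against 1.17, 3.18 and 6.70, and Ccnb1 at 0.965, 1.03 and 1.25 against 0.511, 2.53 and 3.32. In each, BDL 1 was below every Sham library and BDL 3 above every one. The 95% intervals of the log2 fold changes were -0.88 to 1.57 for Mki67, -1.17 to 0.99 for Top2a and -0.51 to 1.41 for Ccnb1. Cenpa stood at 5.71, 5.51 and 5.55 in Kupffer Sham and 1.73, 2.64 and 6.07 in Kupffer BDL, with BDL 1 and 2 low and BDL 3 above Sham (-0.68, SE 0.34). Cdk1 differed less, at 2.73, 3.21 and 3.04 against 2.20, 2.98 and 3.39 (-0.06, SE 0.16). Too low for the test were Ccne2, Cdc25c, Bub1, Cenpe and Cenpf.

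Kupffer BDL 3 carried fewer markers of its own cell type. Kupffer cell markers summed to 16871, 11705 and 2765 FPKM in the BDL libraries (7194 to 8533 in Sham), with none at 0. Erythroid markers summed to 3224, 537 and 22651 (2094 to 13613 in Sham), and neutrophil markers to 920, 883 and 2472 (337 to 378 in Sham, none at 0), of which 3 of 9 tested rose. B and plasma cell markers summed to 361, 353 and 723 (1078 to 1403 in Sham), T and NK cell markers to 19.8, 31.4 and 79.4 (81.4 to 118 in Sham), with none of either at 0. Endothelial markers fell in 4 of 9 cases (1422 to 1747 in Sham, 409 to 1120 in BDL). Hepatocyte markers summed to 455 to 1049 in Sham and 1235 to 4333 in BDL, and 10 of 10 had a positive log2 fold change (median 2.03), none called. Stellate and fibroblast markers summed to 41.6 to 106 in Sham and 163 to 249.1 in BDL, and 1 of 10 rose. Monocyte markers summed to 99.3 to 321 and 375 to 449, and 2 of 6 tested rose. These 3 lists had none at 0, and their sums did not overlap between the groups. Their part in the cell cycle values was not tested.

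Without Kupffer BDL 3, 9 of 34 members were called with limma, against 18.4% of all genes. Ccnd1 (-1.69), Ccnd2 (-2.23), Ccnd3 (-0.71), Cenpa (-1.06), Mcm2 (-0.96), Mcm5 (-1.27) and Mcm6 (-0.96) were lower and Cdkn1a (1.15) and Cdkn1b (0.46) higher, as log2 fold changes. Leaving out any other Kupffer library gave 0 calls. Within sexes, the mitotic sum was 39.6 in the male Sham and 22.6 in the male BDL library, and 46.6 and 52.5 against 52.3 and 84.9 in the female ones.

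**Figure D5:**
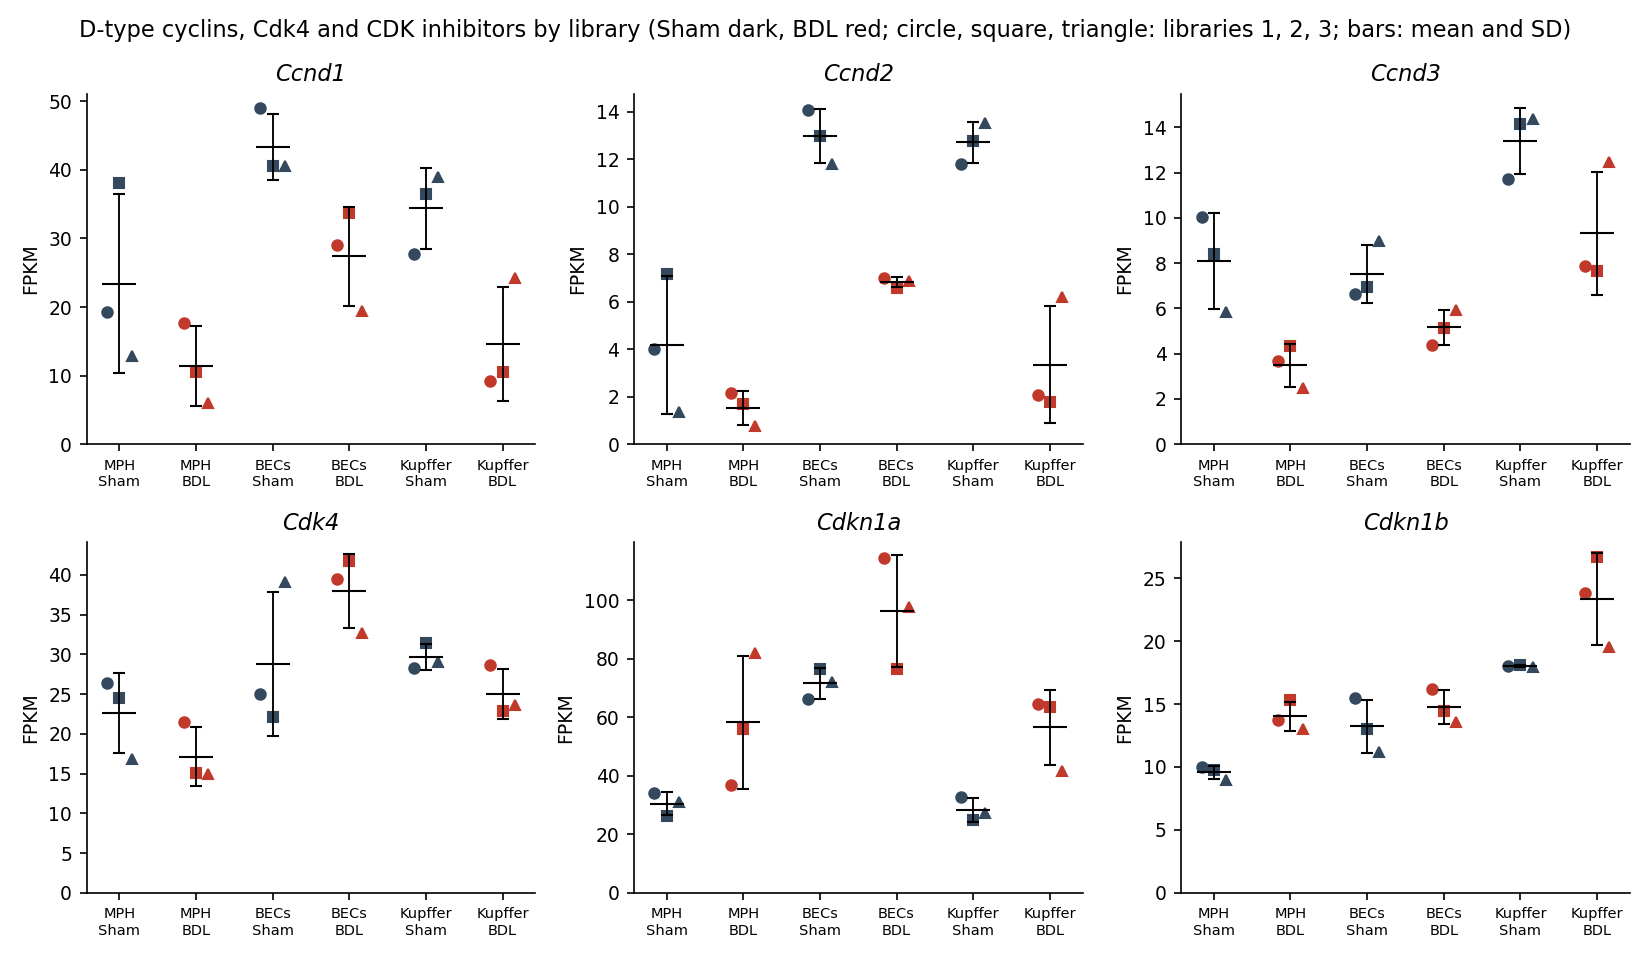
FPKM per library (y axis) of the D-type cyclins, Cdk4, Cdkn1a and Cdkn1b by cell type and operation (x axis), with mean and SD of 3 libraries. Ccnd2 in BECs lies at 11.8 to 14.1 in Sham and 6.59 to 7.01 in BDL.

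Whether the response itself differed between cell types was tested with an interaction term fitted to the 12 libraries of both. Between MPH and BECs, 2 of 36 members differed, Cenpa and Ccnb1, against 1.60% of 14780 genes with limma. The change of Cenpa was 1.60 lower in MPH than in BECs on the log2 scale (-1.60, SE 0.27, adjusted p = 0.0193 with limma), from means of 2.18 and 1.02 FPKM in MPH against 2.48 and 5.75 in BECs. That of Ccnb1 differed by -1.51 (SE 0.33, adjusted p = 0.0499 with limma), where the MPH values stand on 9 to 45 reads. No MPH library reached 1 FPKM of Ccnb1, so it entered this test through its BECs values alone. Of the 17 mitotic genes tested, 17 had a negative difference, with a median of -1.51, but only 9 of them passed the filter within MPH. Over all members 34 of 36 were negative, and 25 had an unadjusted p under 0.05.

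That count of 2 depended on single libraries. It was 0 without MPH Sham 1, MPH BDL 2, BECs Sham 1 or BECs Sham 2 (0.347% to 0.560% of all genes called). It was 1 (Cenpa) without MPH Sham 2, MPH BDL 1, MPH BDL 3, BECs BDL 1 or BECs BDL 2 (0.522% to 2.31%). It was 7 of 35 without BECs Sham 3 (against 1.80% of all genes), with Ccnb2, Cdk1, Cdc20, Aurka and Tyms added. The adjusted p of Cenpa ran from 0.0229 to 0.0608 with limma when 1 library was left out, and Ccnb1 stayed under 0.05 only without BECs Sham 3 or BECs BDL 3. With a pseudocount of 0.1 the count was 1 (0.758% of all genes called), Ccnb1 having an adjusted p of 0.0808 with limma.

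Between MPH and Kupffer-like cells 0 of 35 members differed with limma, against 0.404% of 14101 genes, and voom also called 0. There were 5 with an unadjusted p under 0.05. Between BECs and Kupffer-like cells 0 of 38 differed, against 3.50% of 14874 genes, 7 with an unadjusted p under 0.05 and 0 by voom. Cenpa came closest (1.62, SE 0.41, adjusted p = 0.0564 with limma). Without Kupffer BDL 3, 5 of 37 differed, against 12.1% of all genes (Ccnd2, Cenpa, Mcm2, Mcm5 and Mcm6), the change in BECs being the higher in each. Comparisons that share a cell type also share its libraries.

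The levels of the members were also compared between cell types within each operation, where a positive log2 difference means a higher level in the first-named cell type. Of 35 members tested, 9 differed between MPH and BECs in Sham (58.3% of 14466 genes). Ccnd2 (-1.60), Pcna (-1.33), Cdkn1a (-1.21), Mcm6 (-0.99) and Ccnd1 (-0.99) were lower in MPH as log2 differences, as were Cdkn1b and Cdk6. Rrm2 (0.76) and Aurka (0.63) were higher in MPH, but scaled to a common sum both were -0.14. Between MPH and Kupffer-like cells 12 differed (56.8%), and 14 when title numbers entered as a block. Ccnd2 (-1.58), Mcm3 (-1.23), Mcm6 (-1.14), Pcna (-1.09), Cenpa (-1.06) and Mcm2 (-0.91) were lower in MPH and Tyms (0.58) higher, the last turning to -0.19 with a common sum. Between BECs and Kupffer-like cells 8 differed (43.9%). Mcm3 (-1.35), E2f1 (-1.09), Cenpa (-0.93) and Ccnd3 (-0.76) were lower in BECs and Cdkn1a (1.31) and Cdk6 (0.73) higher.

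After ligation, most members were lower in MPH than in BECs. Of 37 members tested, 28 were lower in MPH than in BECs with limma (23.8% of 14210 genes), and 0 of 37 had a positive difference. Of 18 mitotic genes tested, 17 were lower. No MPH BDL library reached 1 FPKM of Bub1, Ccnb1, Birc5 or Aurkb, among others (means 0.152, 0.272, 0.334 and 0.542 FPKM). Such genes passed the filter through BECs or Kupffer-like values alone, where they were higher, so their direction was partly set by the filter. The same limit holds where MPH is compared with Kupffer-like cells, as for Aurkb. Ccnb2 differed by -2.60, Cdc20 by -2.45, Mki67 by -2.37, Top2a by -2.28, Mcm5 by -2.04 and Mcm6 by -1.94 on the log2 scale. Compared with Kupffer-like cells, 15 were lower in MPH (11.8%), Ccnb2 by -2.08, Mki67 by -1.67, Mcm5 by -1.52, Cdc20 by -1.35, Aurkb by -1.32 and Mcm6 by -1.26. Between BECs and Kupffer-like cells 6 differed (31.3%). Cdc20 (1.10), Cdk6 (1.08), Tyms (0.66) and Cdk4 (0.58) were higher in BECs and Ccnd3 (-0.72) and Cdkn1b (-0.62) lower. Levels across cell types depend on scaling. A common sum moved the median of all genes to -0.83 for MPH against BECs, in Sham and in BDL. Against Kupffer-like cells it moved to -0.91 in Sham and -0.53 in BDL. The members' calls between BECs and Kupffer-like cells in BDL split into 4 higher and 2 lower, and into 5 higher and 0 lower with a common sum. The members' median in BDL then went from -1.20 to -1.79 for MPH against BECs.

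These counts also moved with single libraries, and beside each the share of all genes called in either direction is given. For MPH against BECs in Sham it was 4 without BECs Sham 1 (48.1%) or 2 (46.8%). For MPH against Kupffer-like cells in Sham leaving out Kupffer Sham 2 gave 7 (46.4%) and leaving out Kupffer Sham 3 gave 5 (46.2%). For BECs against Kupffer-like cells in Sham it was 3 without BECs Sham 1 (32.0%) or Kupffer Sham 3 (35.2%) and 4 without BECs Sham 2 (33.0%) or Kupffer Sham 2 (35.2%). In BDL, MPH against BECs had 17 calls without BECs BDL 2 (32.3%). MPH against Kupffer-like cells had 8 without MPH BDL 2 (20.3%), 9 without MPH BDL 3 (22.9%) or Kupffer BDL 3 (31.3%), 7 without Kupffer BDL 2 (18.6%) and 24 without Kupffer BDL 1 (22.3%). BECs against Kupffer-like cells had 12 without Kupffer BDL 3 (36.5%), 2 without BECs BDL 3 (18.7%) and 1 without BECs BDL 1 (17.7%). It had 0 with limma without BECs BDL 2, Kupffer BDL 1 or Kupffer BDL 2 (6, 7 and 5 with an unadjusted p under 0.05, against 17.4%, 24.7% and 23.5% of all genes called).

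Other genes of the same phases, from lists that share no gene with the 40, were counted in the same fits. These lists too were chosen with earlier results of these data known, so they are no independent check. Of 25 further S phase genes, 20 of 21 tested in BECs were positive and 1 was called, against 7.66% of all genes. That was Hells, a chromatin remodeller, at 0.692, 0.703 and 1.22 FPKM in Sham and 2.34, 2.56 and 1.73 in BDL (0.78, SE 0.18, adjusted p = 0.0466 with limma). In MPH 2 of 19 were positive and in Kupffer-like cells 5 of 19, none called. Of 31 further G2 and M phase genes, 23 of 23 tested in BECs were positive (median 0.76) and 3 rose, against the same 7.66% called in either direction. Smc4, a condensin subunit, stood at 6.41, 6.30 and 6.72 in Sham and 10.6, 11.7 and 9.72 in BDL, a tight separation (0.64, SE 0.12, adjusted p = 0.0281 with limma). Anln and Kif23, both needed for cytokinesis, had 0.96 (SE 0.20) and 0.92 (SE 0.21). In MPH 1 of 13 was positive (median -0.65) and in Kupffer-like cells 12 of 22 (median 0.03), none called with limma in either. Among BECs Sham libraries, Hells and Anln (0.489, 0.449 and 1.00 FPKM) reached 1 FPKM only in library 3. Both passed the filter through their BDL libraries, where they were higher, so their direction was partly set by the filter. Listed genes that failed the filter were not counted by direction.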

How the data were processed

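Poly(A) RNA was sequenced from 18 libraries (3 cell types, Sham or BDL, 3 libraries each). The FPKM values are as deposited by the authors. Per the submitters' processing notes, CASAVA 1.8, fastp, HISAT2 2.0.5, featureCounts 1.5.0-p3 and DESeq2 1.20.0 were used on mm10. For annotation release and strandedness of counting, nothing is given in the sources used here.

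Groups came from the labels. The members and gene lists were chosen with earlier results of these data known. A gene was tested in a comparison if 3 or more of its libraries reached an FPKM of 1. The test ran on log2(FPKM + 1) with limma 3.58.1 (R 4.3.3, moderated, trended and robust, 2-sided), with Benjamini-Hochberg adjustment over all genes tested and a threshold of 0.05. There were 12 comparisons. Each cell type was compared between BDL and Sham (6 libraries), these changes were compared between cell types (12 libraries), and cell types were compared within Sham and within BDL (9 libraries). The scripts were tested on simulated data.

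FPKM steps with exon lengths of GENCODE M21 (found for 53710 of 54532 genes) gave back whole reads, within 0.02, for 97.4% to 98.4% of values under 200 reads. The library sizes implied by them were 0.516 to 1.22 of the reads in genes, so the values are not scaled to total reads. Depth was 15455406 to 20583321 reads in genes per library, and genes with few reads are the least precise.

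Named by rule are members called for BDL against Sham, with Mki67, Top2a, Ccnb1, Ccnd1, Ccnd2, Cdk4, Mcm2, Pcna and Cdkn1a whatever their result, the 6 called members with the largest difference in other comparisons, the 4 called genes with the smallest p of each further list, and 5 promoters by smallest p. All other named genes, the promoters of Ccnb1 and Cenpa included, were chosen after their values were seen. Alternatives were a pseudocount of 0.1, no filter, scaling to a common sum, voom on recovered reads, all 18 libraries in 1 model, leaving out each library, the title number as a block (statmod 1.5.0) and, chosen after seeing the data, sex as a covariate.

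Titles of MPH and Kupffer libraries share 3 numbers. The deviations of same-numbered libraries from their group means correlated at 0.213, 0.324 and 0.299, and those of other pairs at -0.320 to 0.208. The lowest of the former is thus close to the highest of the latter. Same-numbered libraries also had the same sex by Ddx3y and Xist, so pairing by number is possible but not shown. The main fits did not pair libraries, and the number entered only as the alternative block.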

Additional observations from a re-analysis of the deposited data

Results flagged for a closer look

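The response to ligation differed between MPH and BECs by a test of the difference itself for 2 members. For Cenpa the change in MPH minus that in BECs was -1.60 on the log2 scale, with all 3 BECs BDL libraries above BECs Sham and all 3 MPH BDL libraries below MPH Sham. For Ccnb1 it was -1.51, with all 3 BECs BDL libraries above BECs Sham and the MPH groups overlapping at 9 to 45 reads. Ccnb1 passed the filter on low values through BECs alone, where it was higher.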

How the results depend on the processing

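Counts are members called with limma. Leaving out 1 library kept 72 of the 108 counts within 1.5 times and moved 36. For BDL against Sham the counts ran from 0 to 0 in MPH, 0 to 8 in BECs and 0 to 9 in Kupffer-like cells. For differences of the response they ran from 0 to 7 (MPH and BECs), 0 to 0 (MPH and Kupffer) and 0 to 5 (BECs and Kupffer). Within Sham they ran from 4 to 11, 5 to 16 and 3 to 10, and within BDL from 17 to 29, 7 to 24 and 0 to 12, for MPH with BECs, MPH with Kupffer and BECs with Kupffer. Of the other settings, 50 counts were within 1.5 times and 24 moved. All 18 libraries in 1 model gave 5 in MPH, 2 in Kupffer, 1 for the difference of BECs and Kupffer, and 23 for MPH with Kupffer in BDL. Without the filter, BECs had 0 and the difference of MPH and BECs 0; Sham had 4, 5 and 4, and BDL had 7 for MPH with Kupffer and 1 for BECs with Kupffer. Voom gave 5 in BECs, 1 for the difference of MPH and BECs, 14 and 25 for MPH with BECs and with Kupffer in Sham, and 26 for MPH with Kupffer in BDL. A common sum gave 1 in Kupffer, 1 for the difference of BECs and Kupffer, 20 and 31 for MPH with BECs and with Kupffer in Sham, and 28 for MPH with Kupffer in BDL. It reversed Rrm2 (-0.14) and Aurka (-0.14) between MPH and BECs and Tyms (-0.19) between MPH and Kupffer, in Sham. A pseudocount of 0.1 gave 1 for the difference of MPH and BECs, and sex as a covariate gave 1 there and 1 in BECs. The cause was not tested, except that leaving out libraries or genes changes how many are tested.

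With the replicate block the difference of MPH and Kupffer stayed at 0 members, while 468 genes in all were called in place of 57, and MPH with Kupffer in Sham had 14 in place of 12. In BDL only 1 number was shared, and the block could not be fitted.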

Other observations

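Regulators of the same genes were read from 3 further lists. Of 23 regulators of the RB, E2F and DREAM families, 1 of 17 tested in MPH was called with limma, against 1.57% of all genes. That was E2f8, a repressor of E2F targets, at 2.56, 2.26 and 2.96 FPKM in Sham and 0.468, 0.326 and 0.616 in BDL (log2 fold change -1.29, SE 0.18, adjusted p = 0.0309 with limma). Its groups lay far apart. In BECs 0 of 19 and in Kupffer-like cells 0 of 17 tested regulators were called, against 7.66% and 3.88% of all genes. Of the 4 other CDK inhibitors, 1 of 3 tested in BECs was called, against 7.66% of all genes. Cdkn2b, which encodes p15, rose there from 1.92, 2.99 and 2.41 to 5.50, 5.24 and 3.95 FPKM (0.78, SE 0.17, adjusted p = 0.0425 with limma). In MPH 0 of 2 and in Kupffer-like cells 0 of 4 tested were called, against 1.57% and 3.88%.

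Of 17 targets of p53, the factor that also drives Cdkn1a, 11 of 15 tested in MPH were positive, 12 of 16 in BECs and 9 of 16 in Kupffer-like cells. Called with limma were 0 of 15 in MPH, 1 of 16 in BECs and 1 of 16 in Kupffer-like cells. Among all genes the shares called were 1.57%, 7.66% and 3.88%, so these counts do not set the list apart. Mdm2, which marks p53 for degradation, rose in BECs from 14.3, 17.3 and 12.3 to 34.7, 27.9 and 25.1 FPKM (0.95, SE 0.18, adjusted p = 0.0294 with limma). Sesn1, a stress-response gene, fell in Kupffer-like cells from 19.2, 18.4 and 20.9 to 12.0, 8.67 and 11.1 FPKM (-0.84, SE 0.15, adjusted p = 0.0441 with limma).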
